A study of Homo sapiens with 3 samples.

Results

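The keratin genes were examined in RNA sequencing of libraries labelled as wild-type HepG2, an established cell line described in the labels as liver cancer cells. Members were the gene rows named KRT followed by a number, with or without a final A, B or C, on the primary chromosome references. The rule found 55 genes, 29 of type I and 26 of type II, among 39320 gene rows shared by the 3 tables, and left out 10 keratin rows on alternate references. The libraries are replicates 1, 2 and 3 of 1 untreated condition of genotype WT, so no treatment or second genotype was available for comparison. The label goes against the marker genes: ALB (albumin), APOA1, APOB, SERPINA1 and FGB, which hepatocyte-derived cells are known for, were at 0 in all 3 libraries, and AFP, the fetal liver protein, averaged 0.0162 ± 0.0141 TPM (SD, n = 3). The identity of the culture could not be settled from these tables, so each keratin value below is a value of the libraries labelled HepG2 and may not be one of HepG2 cells. The labels do not say whether the replicates came from separate cultures, so the spread between these libraries may be technical. The exact permutation test used below gives 0.25 whenever all 3 libraries agree in direction, so its p-values do not measure that spread. Levels are in TPM, a measure of transcript abundance that corrects for gene length and has the same sum in all libraries. Errors are the SD over 3 libraries.

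Keratins are the intermediate filament proteins of epithelial cells. A filament is built from heterodimers of 1 acidic type I and 1 basic or neutral type II keratin, and an unpaired keratin protein is usually degraded. Hepatocytes are known for expressing only KRT8 and KRT18, whereas bile duct cells also express KRT7 and KRT19, and stratified epithelia replace these with pairs such as KRT5 with KRT14 and KRT1 with KRT10. Human type II genes and KRT18 form a cluster on chromosome 12, and the other type I genes form a cluster on chromosome 17.

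KRT8, the type II keratin of simple epithelia, was the most abundant member. The deposited row lies at chr12:52897187-52949866 on the minus strand of GRCh38. Replicates 1, 2 and 3 had 2642, 2599 and 2588 TPM, a mean of 2609.6 ± 28.6 TPM (SD, n = 3). KRT8 ranked 22nd of all 39320 rows by mean TPM. KRT18, its type I partner, lies at chr12:52948871-52952906 on the plus strand and had 2129, 1993 and 1928 TPM, a mean of 2017 ± 102 TPM (SD, n = 3) and rank 41. The lowest KRT8 value was above the highest KRT18 value.

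KRT8 and KRT18 together made up 84.1 ± 0.266% (SD, n = 3) of the summed keratin TPM. KRT8 gave 79.8 ± 0.187% of the type II sum and KRT18 gave 90.4 ± 0.710% of the type I sum (SD, n = 3). All 55 keratins summed to 5503 ± 138 TPM (SD, n = 3), or 0.550 ± 0.0138% of all TPM in a library.

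Another 4 keratins had at least 10 TPM in every library. KRT7 (chr12:52233243-52252667, plus strand), the type II keratin of ductal and glandular epithelia, had 551, 540 and 542 TPM in replicates 1, 2 and 3, a mean of 544 ± 5.71 TPM (SD, n = 3). KRT17 (chr17:41619442-41624575, minus strand), a type I keratin of hair follicles that is also induced in wounded and hyperproliferative epidermis, had 137, 139 and 139 TPM, a mean of 138 ± 1.28 TPM (SD, n = 3). The 3 libraries were nearly level for both genes. KRT80 (chr12:52168996-52192014, minus strand), a type II epithelial keratin, had 125, 110 and 109 TPM, a mean of 115 ± 9.13 TPM (SD, n = 3). KRT10 (chr17:40818117-40822621, minus strand), the type I keratin of suprabasal epidermis, had 59.5, 72.9 and 69.3 TPM, a mean of 67.2 ± 6.93 TPM (SD, n = 3). KRT80 was highest and KRT10 lowest in replicate 1.

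The order of these 6 genes was KRT8, KRT18, KRT7, KRT17, KRT80 and KRT10, and no neighbours in that order overlapped between libraries. They made up 99.8 ± 0.00507% (SD, n = 3) of the keratin TPM. Their coefficients of variation ran from 0.926% for KRT17 to 10.3% for KRT10, with a median of 3.08%, against a median of 4.88% over the 8419 rows with a mean of at least 10 TPM. Those rows were not matched to the 6 keratins in level. Mean coverage, the read depth per base of a gene with no scaling for library size, gave the same order. It was 12368 ± 964 for KRT8, 11509 ± 1320 for KRT18, 1832 ± 135 for KRT7, 824 ± 51.9 for KRT17, 607 ± 83.2 for KRT80 and 396 ± 40.3 for KRT10 (SD, n = 3). By coverage KRT8 (11290 to 13149) and KRT18 (10112 to 12736) overlapped between libraries, with KRT8 higher within each library.

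**Figure D1:**
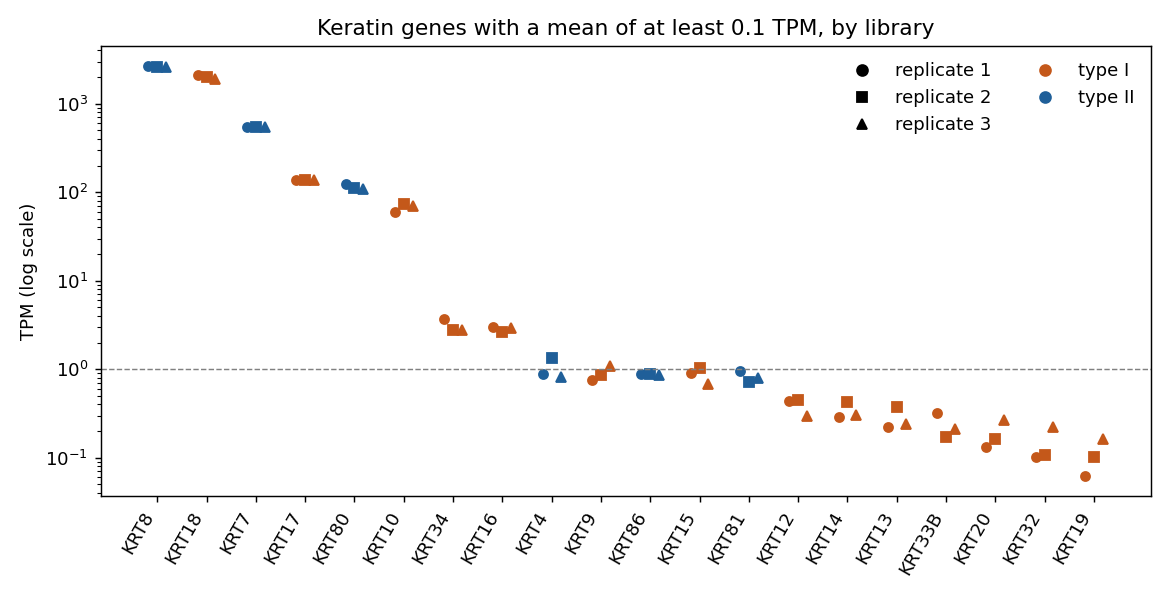
TPM of the 20 keratins whose mean reached 0.1 TPM, on a log scale, with 1 marker shape per replicate, type I in orange, type II in blue and a dashed line at 1 TPM. KRT8, KRT18, KRT7, KRT17, KRT80 and KRT10 stand above 50 TPM, and every other keratin is below 4 TPM.

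Only KRT34 and KRT16 joined those 6 genes at 1 TPM or more in every library. KRT34, a type I keratin of the hair cortex, had 3.69, 2.74 and 2.78 TPM, a mean of 3.07 ± 0.535 TPM (SD, n = 3). KRT16, a type I keratin of wounded and hyperproliferative epidermis, had 2.99, 2.62 and 2.94 TPM, a mean of 2.85 ± 0.200 TPM (SD, n = 3). The values of KRT34 and KRT16 overlapped. KRT4, KRT9 and KRT15 reached 1 TPM in a single library each. KRT4, the type II keratin of moist stratified mucosa, had 0.882, 1.35 and 0.816 TPM. KRT9, the type I keratin of palms and soles, had 0.754, 0.862 and 1.09 TPM. KRT15, a type I keratin of basal cells, had 0.904, 1.03 and 0.677 TPM. The values of KRT4, KRT9 and KRT15 overlapped one another.

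In all, 8 of 55 keratins, or 14.5%, had at least 1 TPM in all 3 libraries, 5 of type I and 3 of type II. Among the 18743 rows of genes that RefSeq lists as protein-coding, which include all 55 keratins, 59.5% passed the same limit. A further 24 keratins, or 43.6%, were listed at 0 in all 3 libraries, against 20.0% of protein-coding rows. The depth is unknown because the tables hold no counts, so a gene listed at 0 has no upper limit here. Between libraries, log2(TPM + 1) spanned more than 1 in none of the 9 keratins whose mean reached 1 TPM, against 1.26% of 13753 rows with such a mean. The largest keratin range was 0.37, for KRT4.

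Of the keratins below 1 TPM in every library, 9 had a mean of at least 0.1 TPM. Those of epithelia were KRT12 with 0.393 ± 0.0856 TPM, KRT14 with 0.339 ± 0.0736 TPM, KRT13 with 0.281 ± 0.0841 TPM, KRT20 with 0.187 ± 0.0684 TPM and KRT19 with 0.1097 ± 0.0514 TPM (SD, n = 3). KRT12 is the keratin of the corneal epithelium, KRT14 of basal stratified cells, KRT13 of mucosa, KRT20 of intestinal and urothelial cells, and KRT19 of ducts. Those of hair and nail were KRT86 with 0.874 ± 0.0191 TPM, KRT81 with 0.825 ± 0.122 TPM, KRT33B with 0.235 ± 0.0748 TPM and KRT32 with 0.144 ± 0.0666 TPM (SD, n = 3). Another 11 keratins, KRT3, KRT6B, KRT23, KRT24, KRT36, KRT38, KRT39, KRT78, KRT79, KRT83 and KRT84, had means of at most 0.0863 TPM and were at most 0.153 TPM in any library.

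By tissue class, all 6 keratins above 10 TPM were those of epithelia. Of 28 epithelial keratins, 7 had at least 1 TPM in every library, 3 in some libraries and 18 in none. Of 17 hair and nail keratins, only KRT34 reached that level, and the class summed to 5.27 ± 0.711 TPM (SD, n = 3). All 9 keratins of the hair follicle root sheath (KRT25, KRT26, KRT27, KRT28, KRT71, KRT72, KRT73, KRT74 and KRT75) were listed at 0 in every library, as was KRT222, which was given no class. The other genes listed at 0 were KRT1, KRT2, KRT5, KRT6A, KRT6C, KRT76 and KRT77 of epithelia and KRT31, KRT33A, KRT35, KRT37, KRT40, KRT82 and KRT85 of hair and nail.

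The next question was whether type I and type II transcripts were balanced, since the proteins pair in equal numbers. The type I keratins summed to 2335, 2214 and 2146 TPM in replicates 1, 2 and 3, a mean of 2231 ± 95.9 TPM (SD, n = 3). The type II keratins summed to 3321, 3252 and 3242 TPM, a mean of 3271.5 ± 43.0 TPM (SD, n = 3). The sums did not overlap, and type II was higher in 3 of 3 libraries, by 1.47 ± 0.0443 times (SD, n = 3). The log2 ratio of type I to type II was -0.55 ± 0.04 (SD, n = 3), with p = 0.25 by an exact permutation test that flips the sign of each library (two-sided) and 0.25 after Benjamini-Hochberg adjustment over 3 ratios. The log2 ratio was -0.22 by coverage and -0.29 with KRT7 left out. The smallest p that 3 libraries allow is 0.25, so none of the ratios could pass a threshold of 0.05.

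**Figure D2:**
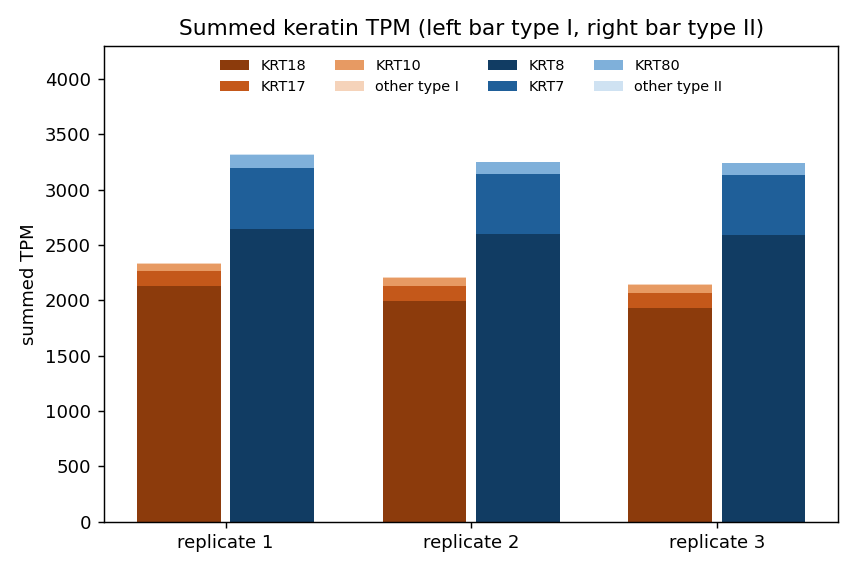
Summed TPM of type I keratins (left bars, orange) and type II keratins (right bars, blue) in each replicate, stacked by gene. KRT18 and KRT8 fill most of each bar, and the type II sums (3242 to 3321 TPM) stand above the type I sums (2146 to 2335 TPM).

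Within the leading pair, KRT8 exceeded KRT18 in 3 of 3 libraries. The ratio of KRT8 to KRT18 was 1.24, 1.30 and 1.34 in replicates 1, 2 and 3, with a log2 ratio of 0.37 ± 0.06 (SD, n = 3) on the log2(TPM + 1) scale and p = 0.25 by the exact sign-flip test. By coverage the log2 ratio was 0.11. The ratio was lowest in replicate 1, which also had the highest ratio of coverage to FPKM, a relative measure of depth (13.3, against 12.8 in replicate 2 and 11.5 in replicate 3). The part of depth in this ratio was not tested.

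Outside this pair the type II excess was wider, and it was not seen without KRT7. Without KRT8 and KRT18, the type I keratins summed to 206, 221 and 217 TPM and the type II keratins to 679, 653 and 654 TPM in replicates 1, 2 and 3. Type II was 3.08 ± 0.179 times type I (SD, n = 3), a log2 ratio of type I to type II of -1.62 ± 0.08 with p = 0.25 by the exact sign-flip test. When coverage replaced TPM the log2 ratio was -0.95. With KRT7 also left out, the type II sum fell to 118 ± 9.15 TPM (SD, n = 3) and the direction turned, with a log2 ratio of 0.86. With KRT17 left out in place of KRT7 the log2 ratio was -3.09. KRT7 and KRT17 were singled out after their values were seen.

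Each of 8 partner pairs described for human epithelia was then read as a pair. Each gene was placed in 1 pair only. KRT18, which had 3.71 times the mean TPM of KRT7, was therefore read with KRT8 alone. Only KRT8 with KRT18 had both partners at 1 TPM or more in every library. KRT7 stood at 544 TPM while its ductal partner KRT19 was listed at 0.0628, 0.102 and 0.165 TPM. KRT17 stood at 138 TPM while KRT6B was listed at 0, 0 and 0.0270 TPM. KRT10 stood at 67.2 TPM while KRT1 was listed at 0 in all 3 libraries, and so was KRT2, a late epidermal type II keratin.

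The remaining pairs were low on both sides. KRT16 had 2.85 TPM and KRT6A was listed at 0 in all 3 libraries. KRT14 had 0.339 TPM and KRT5, the basal type II keratin, was listed at 0 in all 3. KRT4 had 1.01 ± 0.290 TPM against 0.281 TPM for KRT13, and KRT12 had 0.393 TPM against 0.0210 ± 0.0321 TPM for KRT3 (SD, n = 3). The values describe RNA and not protein, and which keratins paired in these cells was not measured.

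**Figure D3:**
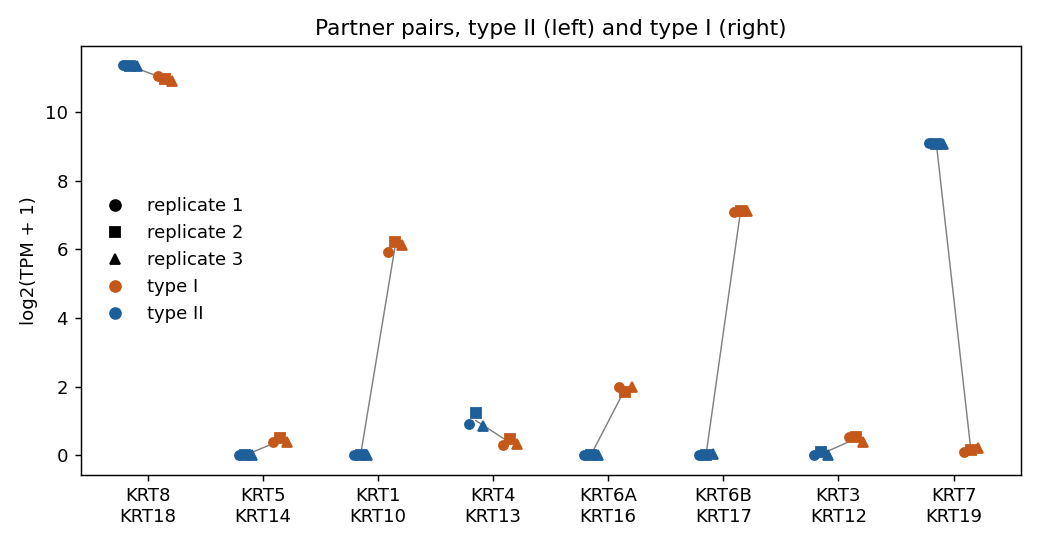
log2(TPM + 1) of the type II (blue, left) and type I (orange, right) gene of 8 partner pairs, with 1 marker shape per replicate and a grey line joining the means. Only the KRT8 and KRT18 pair is high on both sides, and KRT7, KRT17 and KRT10 each stand opposite a listed partner near 0. Each gene is shown in 1 pair only.

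Along the chromosome 12 cluster, which spans 783911 bp from KRT80 to KRT18, the genes above 10 TPM were at the ends. KRT80 and KRT7 are the first genes in map order and KRT8 and KRT18 the last of 27. Between KRT7 and KRT8 lie 644519 bp with 23 keratin genes, whose summed TPM was 2.92 ± 0.226 (SD, n = 3) and whose highest single value was the 1.35 TPM of KRT4 in replicate 2. Of these 23 genes, 14 were listed at 0 in every library. The next gene beyond KRT18, EIF4B, a translation initiation factor, had 354 ± 10.7 TPM (SD, n = 3).

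On chromosome 17 the cluster spans 969911 bp from KRT222 to KRT17 and its 28 keratins summed to 215 ± 7.60 TPM (SD, n = 3). KRT17 is the last gene in map order, and its row is 6674 bp from that of KRT16, and the mean TPM of KRT17 was 48.5 times that of KRT16. KRT10 is the 7th gene, with the root sheath gene KRT28 before it at 0 and KRT12 after it at 0.393 TPM. The gene beyond KRT17 on the far side of the keratin pseudogene KRT42P, EIF1, had 227 ± 9.04 TPM (SD, n = 3), and KRT42P was listed at 0.

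**Figure D4:**
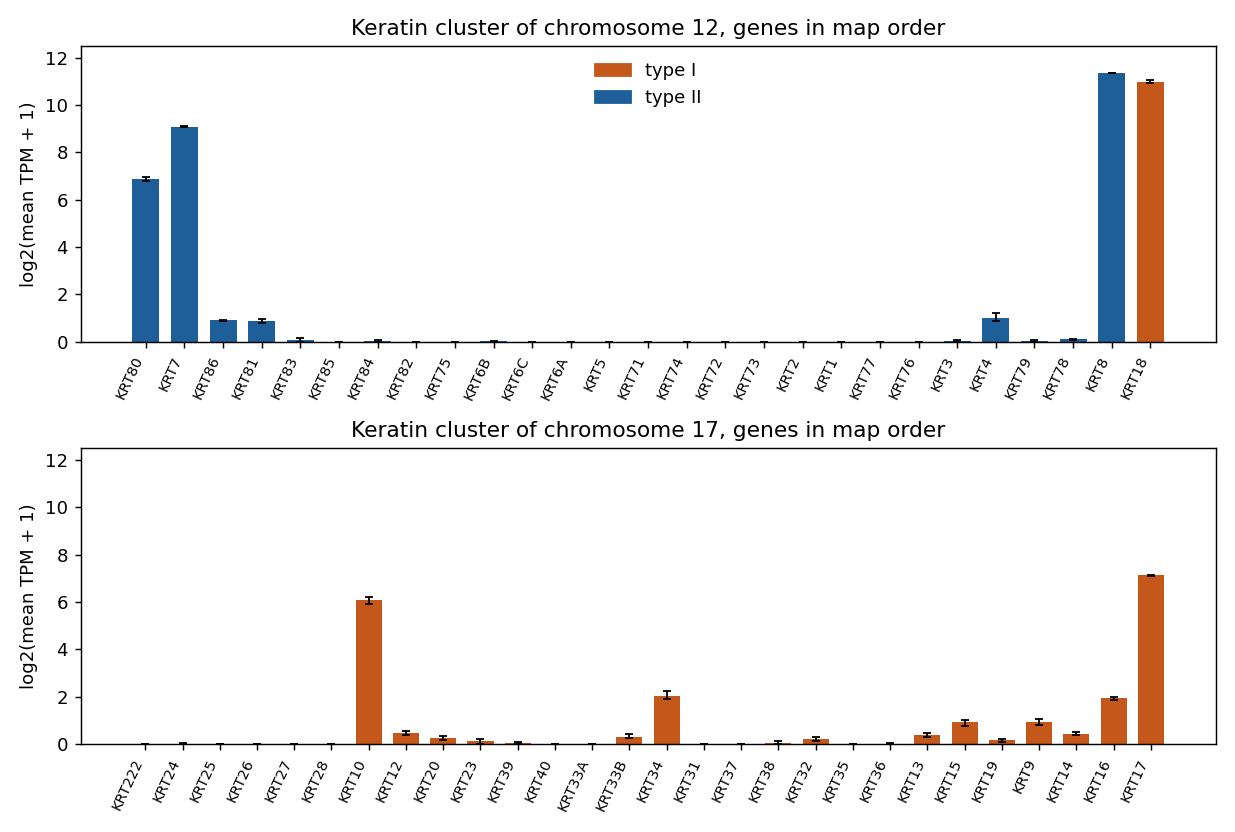
log2(mean TPM + 1) of each keratin in map order on chromosome 12 (upper panel, 27 genes) and chromosome 17 (lower panel, 28 genes), type I in orange and type II in blue, with black bars from the lowest to the highest library. The tall bars are at both ends of the chromosome 12 cluster and at KRT10 and KRT17 on chromosome 17.

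Keratin genes resemble one another closely, which bears on how reads are assigned. In the coding sequences of GENCODE v44 (MANE Select transcripts, found for all 55 genes), identity was counted as matching bases over the longer sequence. It was at least 90% in 8 of 731 pairs of the same type, with 98.5% for KRT6B and KRT6C, 97.9% for KRT6A and KRT6C, and 90.4% for KRT81 and KRT86. KRT14 and KRT16 were 86.8% identical, KRT14 and KRT17 78.8%, and KRT16 and KRT17 73.3%. Among the abundant genes, KRT7 and KRT8 were 71.4% identical. The stretch below is shown because it is the 60-base coding stretch within 1 exon in which KRT14, KRT16 and KRT17 differ least. It codes for the start of the central helix, lies on the minus strand of GRCh38, and capitals mark the 1 position that differs among the 3 genes. The positions are chr17:41624192-41624251 in KRT17, chr17:41612272-41612331 in KRT16 and chr17:41586424-41586483 in KRT14.
KRT17: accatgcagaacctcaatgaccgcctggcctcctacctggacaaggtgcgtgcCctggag
KRT16: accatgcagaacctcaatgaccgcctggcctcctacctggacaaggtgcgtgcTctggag
KRT14: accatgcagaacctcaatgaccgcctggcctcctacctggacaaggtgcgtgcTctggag

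KRT16 and KRT14 carry the same 60 bases there, and KRT17 differs from both at 1. Over whole transcripts, shared 75-base stretches were counted against all other genes in 252835 GENCODE v44 transcripts, in both orientations. They made up 4.57% of KRT17, 9.60% of KRT16 and 10.2% of KRT14. At the read length of 150 bases the shares were 0% for KRT17, 0.729% for KRT16 and 0.605% for KRT14. For the 6A, 6B and 6C genes they were 9.26%, 12.7% and 16.3% at 150 bases. How much of the low KRT16 and KRT14 values came from reads of KRT17 was not tested.

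KRT8 shared 18.8% of its 75-base stretches with 12 other genes, and KRT18 shared 28.4% with 15, all with names that begin with KRT. At 150 bases KRT8 shared 0%, and KRT18 shared 12.3% with transcripts of KRT8, whose row overlaps that of KRT18 by 996 bp on the opposite strand. KRT7 shared 5.22% at 150 bases with KRT7-AS, an antisense gene within it that had 4.48 ± 0.319 TPM (SD, n = 3). KRT80, KRT10 and KRT34 shared 0% at 150 bases. The strand setting of the quantification is not given in the sources used here, so reads from overlapping genes on opposite strands cannot be told apart. The ratio of KRT8 to KRT18 carries this limit as well. KRT81 lies within the row of KRT86 on the opposite strand and shared 25.6% at 150 bases, and the low values of KRT81 and KRT86 are uncertain for that reason. The row of KRT10 overlaps TMEM99 on the opposite strand over 3530 bp, and TMEM99 had 6.76 ± 0.150 TPM (SD, n = 3).

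The 100 bases before the annotated start of each MANE Select transcript were read from the GRCh38 sequence. Of 55 keratins, 23 (41.8%) had the letters TATAAA in this window on either strand, against 5.73% of 19061 genes with such a transcript. The letters GGGCGG, the core of a GC box, were found in 8 keratins (14.5%), against 46.4% of all. CCAAT was found in 13 keratins (23.6%), against 21.0% of all, and TGANTCA in 0, against 1.78% of all. The median number of CG dinucleotides in the window was 1 in the keratins and 9 in all. A match of letters is a description and not a binding site.

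Genes that act with keratins were read from lists. Among 15 other intermediate filament genes, 6 reached 10 TPM in every library. LMNA, the nuclear lamin A and C gene, had 722 ± 25.1 TPM, VIM, the vimentin of mesenchymal cells, 694 ± 48.1 TPM, LMNB1 123 ± 4.43 TPM and LMNB2 87.0 ± 2.85 TPM (SD, n = 3). SYNM, a linker-type filament protein, had 45.3 ± 2.83 TPM, and INA, a neuronal filament protein, had 43.6 ± 3.77 TPM (SD, n = 3). NES and BFSP1 were at 8.37 and 4.64 TPM, and the other 7 (BFSP2, DES, GFAP, NEFH, NEFL, NEFM and PRPH) were below 1 TPM in every library. The keratins summed to 7.95 ± 0.343 times the TPM of VIM (SD, n = 3).

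A further list held 14 genes for proteins that link keratins to desmosomes or bind them in the cytoplasm. At least 1 TPM in every library was reached by 13 of them, against 59.5% of protein-coding rows. In each of the 3 libraries 12 reached 10 TPM, to be read beside the 8419 of 39320 rows with such a mean. Both lists were chosen by hand. JUP, the plakoglobin of the desmosomal plaque, had 219 ± 5.97 TPM, PLEC, the linker plectin, had 119 ± 6.94 TPM, PKP3, a plakophilin, had 71.3 ± 4.84 TPM, and DSP, the desmoplakin that anchors keratins, had 52.6 ± 3.23 TPM (SD, n = 3). PKP4, PPL, TCHP, EPPK1, DST, EVPL, PKP2 and TRADD ranged from 11.5 to 37.5 TPM in mean. FBF1 was at 6.97 ± 0.0354 TPM and PKP1, the plakophilin of stratified epithelia, at 0.0914 ± 0.0311 TPM (SD, n = 3).

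**Figure D5:**
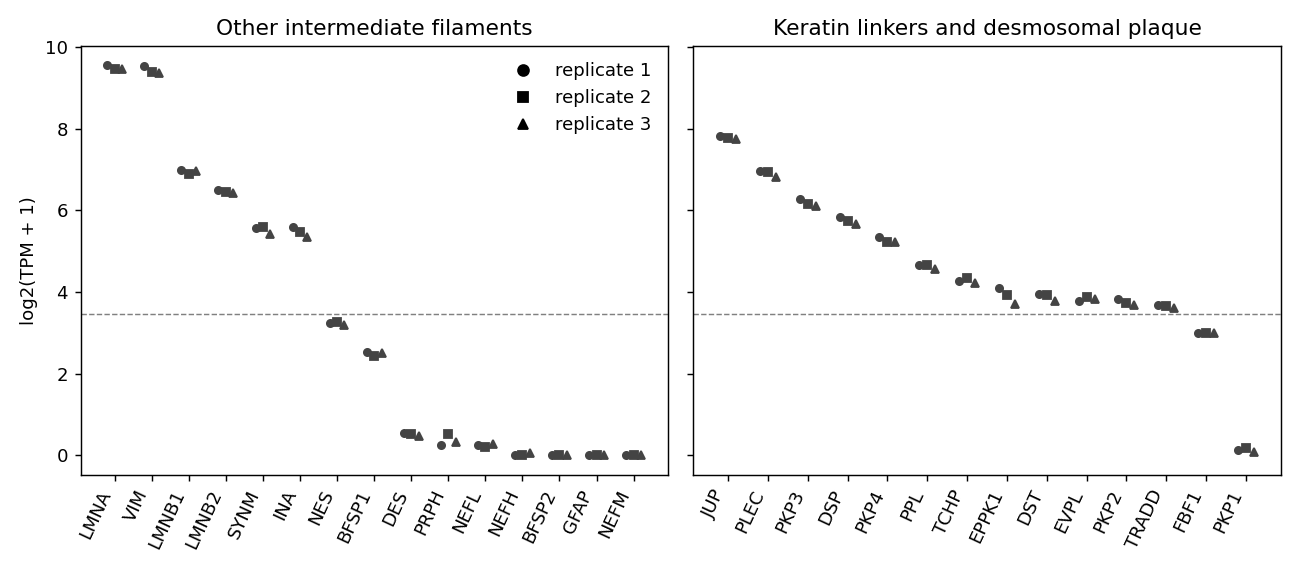
log2(TPM + 1) of 15 other intermediate filament genes (left) and 14 keratin linker and desmosomal plaque genes (right), with 1 marker shape per replicate and a dashed line at 10 TPM. LMNA and VIM lead the left panel and JUP and PLEC the right, and 6 and 12 genes lie above the line.

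Keratin-associated proteins, which embed keratins in hair, were near 0. Of 93 such rows 76 were listed at 0 in every library, against 20.0% of protein-coding rows. The highest value was the 0.457 TPM of KRTAP21-2 in replicate 3. Of 11 keratin pseudogene rows, KRT87P had 1.54 ± 0.111 TPM (SD, n = 3) and each of the others was at most 0.187 TPM. The row of KRT87P overlaps that of KRT7 on the opposite strand over 2124 bp, so its value is uncertain while the strand setting is unknown.

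The keratins were also read as markers of the labelled cell type and of others. The pair of simple epithelia, KRT8 and KRT18, was abundant, but the 8 listed markers of hepatocyte secretion summed to at most 0.244 TPM in a library, and 5 of them, albumin included, were listed at 0 in all 3. Of 5 markers of biliary and ductal cells, KRT7 was abundant and KRT19, EPCAM, SPP1 and CFTR were below 1 TPM in every library. Of 4 basal markers 0 reached 1 TPM in every library, with TP63 at 0.771 ± 0.0275 TPM (SD, n = 3). Of 5 suprabasal markers, KRT10 alone was above 0, with IVL and LOR listed at 0. Of 4 hyperproliferative keratins, KRT17 and KRT16 passed 1 TPM. Of 5 mesenchymal markers, VIM and COL1A1 had at least 1 TPM in every library, the latter with 6.93 ± 0.564 TPM (SD, n = 3). COL1A2 averaged 0.0210 ± 0.0231 TPM and FN1 0.908 ± 0.120 TPM (SD, n = 3), and SPARC was at 0 in all 3 libraries. The 3 blood markers were below 1 TPM in every library. The part of other cell types in the keratin values was not tested.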

How the data were processed

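RNA was sequenced in 3 libraries of 1 condition. According to the study's methods and the submitters' processing notes, 150 bp paired-end reads were filtered with FastQC 0.11.8 and Trim Galore 0.6.2 and mapped to GRCh38 with STAR 2.6.1a. StringTie is also named in those notes, and the annotation is not given in the sources used here. The authors deposited 1 table per library with coverage (signal, mean depth over a gene, not scaled for library size), FPKM values (scaled for length and library size) and TPM values (scaled to the same total). Depth is therefore unknown, as counts are not among these columns, and precision is given by the spread of 3 libraries.

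Rows were joined by name, reference, strand and coordinates, which kept 43389 rows, and rows on primary chromosome references were used. TPM was used as deposited. Ratios were taken within a library with a pseudocount of 1 and tested by exact permutation of the sign of each library (two-sided), with Benjamini-Hochberg adjustment over 3 ratios. KRT222 was counted as type I. The members, lists and partner pairs were chosen with earlier results of these data known. The genes named were KRT8 and KRT18, every keratin that reached 1 TPM or had a mean of at least 0.1 TPM, the partner pairs, all other keratins by class, and the genes of the other lists with at least 10 TPM in every library. EIF4B, EIF1, KRT7-AS, TMEM99, NES, BFSP1, FBF1, PKP1, KRT87P and KRTAP21-2 were named after their values were seen. Transcripts were taken from GENCODE v44 and sequences from the hg38 reference, which has the build of the files, and coding sequences were aligned globally. Sequences of the windows before transcript starts are not reported here. The range calculation was checked on simulated data and the sign-flip test on a few values written by hand. Alternatives were other pseudocounts and limits, coverage or FPKM as the measure, scaling by the median of ratios, scaling without mitochondrially encoded genes, pseudogenes added, KRT222 left out and each replicate left out. Python 3.11.15, numpy 2.4.6, pandas 2.3.3, statsmodels 0.14.6, Biopython 1.88 and matplotlib 3.10.9 were used.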

Additional observations from a re-analysis of the deposited data

How the results depend on the processing

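No paired analysis was possible because there was no second condition to pair with the first, and the ratios of the report were already taken within each library. The direction of the log2 ratio of KRT8 to KRT18 and of both type I to type II ratios was the same under the other pseudocount, FPKM, coverage and each replicate left out, and under the further settings run for each, except that without KRT8, KRT18 and KRT7 the log2 ratio of type I to type II was 0.86. Leaving out KRT7 or KRT17 was chosen after the data were seen. The number of keratins at or above the limit in all 3 libraries was 8, and 10 when scaled without mitochondrially encoded genes. A looser limit can only raise it, and it was 19 with a minimum of 0.1 TPM and 11 with the limit met in at least 1 library. With a minimum of 10 TPM it was 6. The share of KRT8 and KRT18 was 84.1% by TPM and 86.5% by coverage. Coverage over FPKM, as a fraction of the highest such value in each library, was 0.794 for KRT8 and 0.954 for KRT18. For KRT7 that fraction was 0.563 to 0.565. The part of these fractions in the differences between TPM and coverage was not tested. Scaling without mitochondrially encoded genes raised the mean TPM by over 1 SD in 10 of the 11 keratins that reached 1 TPM in any library, since it multiplies every gene by 1.25 to 1.26. With 3 libraries no setting could give a p below 0.25, and with 2 none could give a p below 0.5. The unknown depth limits every keratin listed at 0.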
